A study of Saccharomyces cerevisiae with 24 samples.

Results

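The genes described here encode proteins of the small subunit processome and of the box C/D small nucleolar ribonucleoprotein particles (snoRNPs) of budding yeast. The set is a list of 43 gene names of pre-rRNA processing, by a rule that uses no value on the arrays, although it was drawn up with earlier results of these data known. Of the 43, 42 had at least 1 probe carrying their name among the 6350 probes of the array; UTP4 had none so named. The 42 genes had 44 probes, since PWP2 had 3, and 42 probes of 41 genes had enough values to be tested among the 5487 probes tested. The NOP1 probe and 1 of the 3 PWP2 probes (number 670) are described without a test.

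The small subunit processome is a large particle that assembles on the nascent pre-rRNA in the nucleolus around the U3 snoRNA, and in it the pre-rRNA is folded, modified and cut on the way to the small ribosomal subunit. Its proteins come in preformed modules, among them UtpA, UtpB, UtpC, the Mpp10 complex and the U3 snoRNP, which are joined by RNA helicases, a GTPase, a methyltransferase and many single factors. The genes for these proteins belong to the ribosome biogenesis regulon of yeast, whose mRNAs are known to fall together and transiently when cells are stressed, apart from but alongside the ribosomal protein genes.

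The measurements were made on 24 two-colour arrays of Saccharomyces cerevisiae cultures, with total RNA of the strain in Cy5 and yeast genomic DNA in Cy3. Besides SS330, against which the others are set here, the strains were prp17-1, prp22-1 and prp17 null. Prp17 (gene CDC40) and Prp22 are pre-mRNA splicing factors that act late in splicing. Each strain was sampled at 23C (0 min) and 5, 15, 30, 60 and 120 min after the move to 37C, on a single array each. All groups shared the shift, so every value at 37C, in SS330 too, is of heat-treated cells. No label names the genetic background of the strains, the mutations behind the allele names, or how SS330 relates to the mutants, and no strain was grown as a second culture. The 5 times at 37C therefore stand in for replicates of a strain, p-values measure the spread between these arrays, and an effect of the strain and one of its culture cannot be told apart. Values are log2 ratios of RNA over genomic DNA, less the median of their array. A probe's own baseline is unknown, so values are compared between arrays of the same probe and never between probes. Each array is of a whole culture, so a fall in all cells, a larger fall in some cells, and a change in total RNA per cell cannot be told apart.

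CDC40 was low on all 6 prp17 null arrays (-2.76 to -0.63) and higher on the SS330 arrays (-0.54 to 0.41), in the direction of the strain's label. The direction of the ratio was itself read partly from CDC40, so this is no independent check of the label. Between 92.7% and 98% of the probes had a value on the SS330 arrays, against 79.7% to 91.6% on the prp17 null arrays and as few as 77.3% on the 15 min array of prp22-1. The SD over probes was 0.418 to 0.783 on the 37C arrays of SS330 and 0.816 to 1.05 on those of prp17 null. Of 264 possible values of the 44 member probes, those missing numbered 13 for SS330, 21 for prp17 null, 7 for prp17-1 and 3 for prp22-1.

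In SS330 the processome and snoRNP mRNAs fell within 5 min at 37C and were back at their starting level by 30 min. The median change from time 0 over the tested member probes was -1.19, -0.65, 0.01, -0.06 and 0.13 at 5, 15, 30, 60 and 120 min. At 5 min 38 of 38 probes with a change were below their time 0 value, and at 15 min 33 of 35. At 30, 60 and 120 min 19 of 40, 23 of 40 and 11 of 39 were below it. By then the members were spread on both sides of their starting level.

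In prp17 null the median was near that of SS330 at 5 min and was still low at 30 min, with changes of -1.13, -1.03, -1.29, -0.51 and -0.41 at the 5 times. All 37 probes with a change at 30 min were below time 0, and 38 of 39 at 60 min. The medians of prp17-1 were -1.03, -1.17, -0.53, 0.07 and -0.33, with all 40 probes below time 0 at 15 min, 15 of 42 at 60 min and 36 of 40 again at 120 min. Those of prp22-1 were -1.40, -0.88, -0.43, -0.33 and -0.65, with 42 of 42 probes below time 0 at 5 min and 41 of 42 at both 60 and 120 min. These sizes rest on the scaling of the arrays. After quantile normalization, which gives all arrays one distribution, the medians at 5, 15 and 30 min were -0.66, -0.33 and 0.12 in SS330 against -0.89, -0.76 and -0.65 in prp17 null, so that prp17 null was the lower at 5 min too and 30 min was not its lowest time. Those of prp17-1 were then -0.79, -0.52, -0.14, 0.34 and -0.04 at the 5 times, with the median at 120 min near its start, and those of prp22-1 were -1.15, -0.56, -0.39, -0.39 and -0.63. Among the probes with all 5 changes measured, those below time 0 at every time numbered 5 of 32 for SS330, 23 of 31 for prp17 null, 12 of 37 for prp17-1 and 33 of 39 for prp22-1. The members of prp22-1 started higher: at 23C their median was 0.24 above SS330, with 5 of 40 probes below it, and large subunit assembly genes stood 0.24 above SS330 as well.

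**Figure D1:**
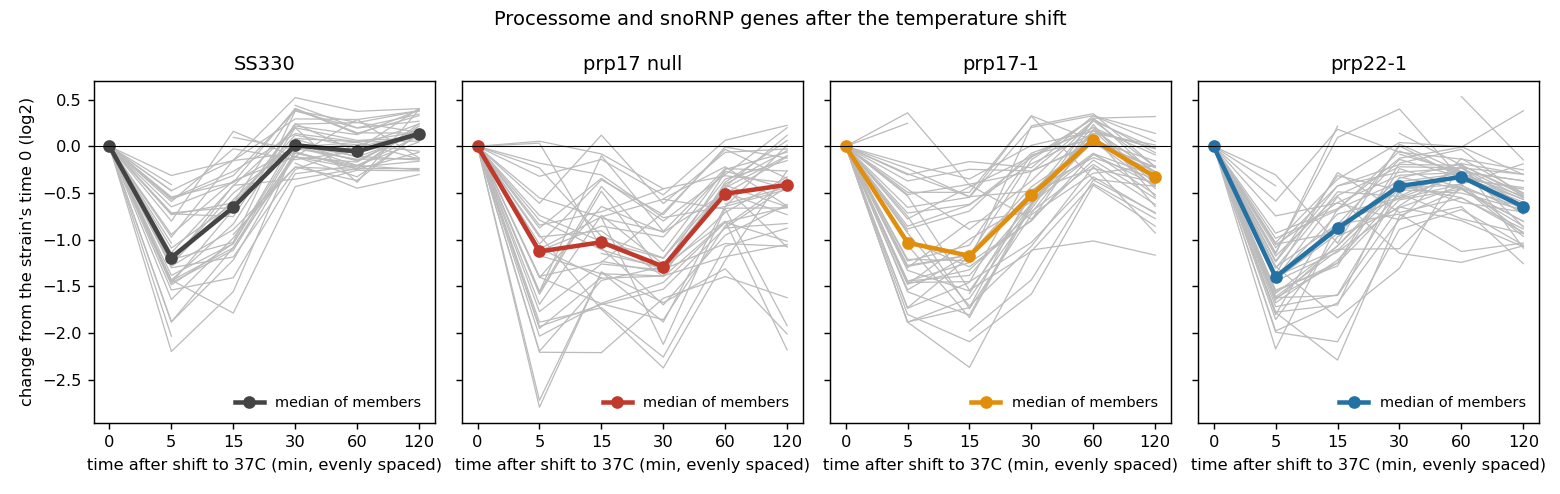
Change of each tested member probe from its own strain's value at 0 min (grey lines, log2) and the median of the members (coloured line with points) at the 6 times, which are evenly spaced on the axis, in the 4 strains. The SS330 median fell by 1.19 at 5 min and stood at 0.01 at 30 min, while that of prp17 null was -1.29 at 30 min and -0.41 at 120 min.

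Over the 4 strains, 29 of the 42 member probes were lower at 37C than at 23C and none was higher, by a limma fit with the strain as a block and an adjusted p under 0.05. The 29 probes belong to 28 of the 41 genes tested. Of all 5487 probes tested, 16.9% were called lower and 13.8% higher. The estimate was below 0 for all 42 member probes, with a median of -0.64 and a range of -1.34 to -0.17, where the median over all tested probes was 0.00. The lower calls were 3 of 6 probes for UtpA, 4 of 7 for UtpB, 3 of 4 for the box C/D and U3 snoRNP proteins and 3 of 3 for the Mpp10 complex. They were 0 of 2 for UtpC, 5 of 6 for the enzymes and their partners and 11 of 14 for the remaining factors. Without the prp17 null array at time 0, 17 of the 42 passed, with a median of -0.56. The share of all probes called was not set beside this count, so it is not read as a result about the members. After quantile normalization 16 members passed, with a median of -0.35, where 17.2% of all probes were called lower and 13.5% higher. The 23C side of the shift rests on 4 arrays, 1 per strain. Heat shock genes rose on the same arrays, 15 of 15 tested, with a median of 2.29, and their part in the members' fall was not tested.

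**Figure D2:**
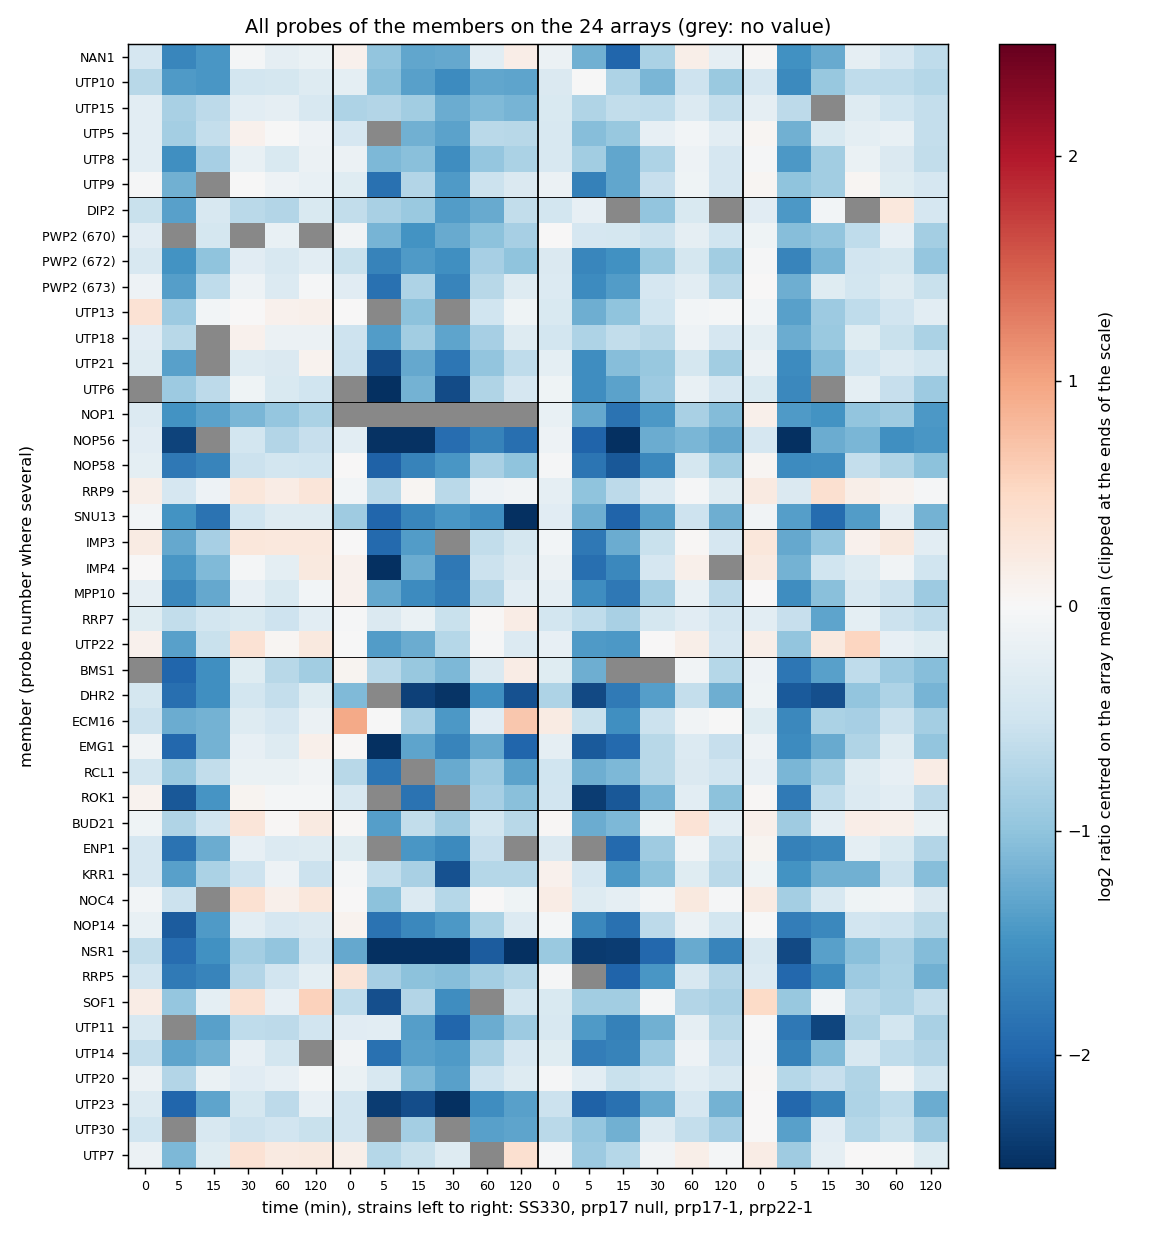
Log2 ratio, centred on the array median, of the 44 probes named for a member (rows, ordered by module) on the 24 arrays (columns, ordered by strain and time), with blue below and red above the median of the array and grey where there was no value. The NOP1 row is grey on all 6 prp17 null arrays, and the NSR1 row lies between -3.47 and -1.28 in prp17 null and between -1.90 and -0.47 in SS330.

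The largest falls were among the core proteins of the box C/D snoRNPs, the particles that guide 2'-O-methylation of rRNA and, with U3, its cleavage. In the order 0, 5, 15, 30, 60 and 120 min, which holds for every series of 6 values here, NOP56, a scaffold protein of the particle, read -0.28, -2.31, no value, -0.46, -0.72 and -0.58 in SS330 and -0.27, -2.48, -2.48, -1.90, -1.67 and -1.89 in prp17 null. The same probe read -0.12, -2.0, -2.49, -1.23, -1.14 and -1.29 in prp17-1 and -0.41, -2.58, -1.25, -1.14, -1.54 and -1.45 in prp22-1. All 4 strains started between -0.41 and -0.12 and read -2.0 or less at 5 min, and only SS330 was above -1.0 from 30 min on. The shift estimate of NOP56 was -1.34 ± 0.19 (SE, adjusted p = 0.00013). Its partner NOP58 read -0.24, -1.78, -1.65, -0.54, -0.45 and -0.49 in SS330 and 0.00, -2.03, -1.68, -1.46, -0.81 and -1.01 in prp17 null. NOP58 values were -0.02, -1.82, -2.11, -1.60, -0.44 and -0.88 in prp17-1 and 0.04, -1.57, -1.55, -0.60, -0.75 and -1.03 in prp22-1. NOP58 fell on the 5 and 15 min arrays of all strains to -1.55 or less, and the strains overlapped there. Its shift estimate was -1.16 ± 0.14 (SE, adjusted p = 3.42e-05).

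SNU13 encodes the protein that binds the kink-turn of box C/D snoRNAs and also that of the U4 spliceosomal RNA. Its probe read -0.07, -1.5, -1.85, -0.50, -0.32 and -0.33 in SS330 and -0.88, -1.98, -1.63, -1.45, -1.55 and -2.80 in prp17 null. SNU13 values were -0.29, -1.22, -2.0, -1.36, -0.51 and -1.22 in prp17-1 and -0.09, -1.38, -1.93, -1.40, -0.27 and -1.18 in prp22-1. It fell early in all strains (-0.99 ± 0.22 (SE, adjusted p = 0.00214)), and in prp17 null it was lowest at 120 min, when SS330 had returned to -0.33. RRP9, a U3-specific protein, moved less, reading 0.14, -0.41, -0.12, 0.28, 0.19 and 0.30 in SS330 and -0.06, -0.67, 0.06, -0.68, -0.13 and -0.09 in prp17 null. It read -0.23, -1.0, -0.66, -0.34, -0.03 and -0.32 in prp17-1 and 0.22, -0.37, 0.40, 0.16, 0.08 and -0.03 in prp22-1. Several of its 37C values were above the 23C value of their strain, and the shift estimate of -0.19 ± 0.12 (SE, adjusted p = 0.251) did not pass.

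NOP1, the fibrillarin methyltransferase, had no value on any of the 6 prp17 null arrays and so was not tested. It read -0.34, -1.49, -1.33, -1.15, -0.98 and -0.80 in SS330, -0.18, -1.28, -1.84, -1.44, -0.81 and -1.08 in prp17-1 and 0.13, -1.41, -1.5, -0.98, -0.88 and -1.44 in prp22-1. In all 3 of these strains every 37C value was below every 23C value, and none had returned to its start by 120 min. Of the 3112 named probes with a value on all 18 arrays of the other strains, 49 (1.57%) had none on the prp17 null arrays. The cause of the missing values was not tested.

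UtpA binds the 5' external transcribed spacer first and has been linked to transcription of rDNA. UTP9 had the smallest p of the module in the shift (-0.58 ± 0.16 (SE, adjusted p = 0.0102)). Its probe read -0.03, -1.20, no value, -0.01, -0.14 and -0.18 in SS330 and -0.29, -1.86, -0.72, -1.42, -0.54 and -0.36 in prp17 null. UTP9 values were -0.15, -1.69, -1.30, -0.58, -0.12 and -0.42 in prp17-1 and 0.04, -1.01, -0.88, 0.05, -0.29 and -0.42 in prp22-1. In SS330, which had no value at 15 min, it was low only at 5 min, while the 30 min array of prp17 null was as low as -1.42. UTP8 at -0.56 ± 0.18 (SE) and NAN1 at -0.65 ± 0.19 (SE) also fell. UTP10 at -0.50 ± 0.22 (SE), UTP5 at -0.34 ± 0.13 (SE) and UTP15 at -0.24 ± 0.11 (SE) did not pass.

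UtpB follows UtpA onto the pre-rRNA and helps to place U3. PWP2, a WD-repeat scaffold protein of the module, was measured by 2 tested probes. Probe 672 read -0.40, -1.49, -1.01, -0.28, -0.41 and -0.27 in SS330 and -0.56, -1.68, -1.41, -1.53, -0.82 and -1.01 in prp17 null. PWP2 (672) values were -0.36, -1.64, -1.52, -0.92, -0.43 and -0.88 in prp17-1 and -0.03, -1.64, -1.15, -0.48, -0.44 and -0.97 in prp22-1. Probe 673 read -0.14, -1.37, -0.64, -0.13, -0.34 and -0.02 in SS330 and -0.28, -1.87, -0.76, -1.66, -0.69 and -0.33 in prp17 null. PWP2 (673) values were -0.34, -1.56, -1.40, -0.43, -0.26 and -0.68 in prp17-1 and 0.01, -1.22, -0.30, -0.46, -0.32 and -0.56 in prp22-1. Both probes fell at 5 min in every strain and stayed low at 30 min in prp17 null. The shift estimates of probes 672 and 673 were -0.66 ± 0.13 (SE, adjusted p = 0.000853) and -0.56 ± 0.17 (SE, adjusted p = 0.0161). Both calls were lost after quantile normalization. The untested probe 670 had no value on 3 SS330 arrays and read between -1.5 and -0.83 at 37C in prp17 null. UTP21 (-0.60) and UTP13 (-0.52) fell too, whereas UTP6 (-0.63), UTP18 (-0.24) and DIP2 (-0.17) did not pass. The SE of UTP6 was 0.34, as it lacked a value at time 0 in SS330 and prp17 null.

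All members of the Mpp10 complex fell. IMP3, which with IMP4 mediates the pairing of U3 with the pre-rRNA, had the smallest p of the module (-0.72 ± 0.10 (SE, adjusted p = 0.000131)). Its probe read 0.21, -1.27, -0.83, 0.29, 0.26 and 0.26 in SS330 and 0.00, -1.95, -1.40, no value, -0.61 and -0.43 in prp17 null. IMP3 values were -0.06, -1.79, -1.24, -0.55, 0.03 and -0.42 in prp17-1 and 0.28, -1.27, -0.97, 0.10, 0.25 and -0.27 in prp22-1. In SS330 it was low at 5 and 15 min and above its start at 30, 60 and 120 min, and in prp22-1 it was close to its start at 60 min. MPP10 fell by 0.85 and IMP4 by 0.84 on the log2 scale. UtpC, a module that also holds casein kinase 2, did not pass for either member. UTP22 read 0.11, -1.35, -0.57, 0.35, 0.06 and 0.24 in SS330 and -0.01, -1.40, -1.25, -0.71, -0.04 and -0.35 in prp17 null. UTP22 values were -0.21, -1.42, -1.43, 0.01, 0.14 and -0.43 in prp17-1 and 0.14, -0.99, 0.24, 0.55, -0.21 and -0.30 in prp22-1. UTP22 was low at 5 min in all strains and at 15 min in all but prp22-1, and its shift estimate was -0.45 ± 0.18 (SE, adjusted p = 0.0668). RRP7 read -0.31, -0.62, -0.46, -0.38, -0.51 and -0.26 in SS330 and -0.04, -0.36, -0.17, -0.56, 0.03 and 0.19 in prp17 null. RRP7 values were -0.45, -0.64, -0.80, -0.44, -0.29 and -0.47 in prp17-1 and -0.27, -0.58, -1.31, -0.25, -0.54 and -0.64 in prp22-1. Apart from the 15 min array of prp22-1, all values of RRP7 lay between -0.80 and 0.19, and its shift estimate was -0.19 ± 0.13 (SE, adjusted p = 0.286).

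Of the enzymes and their partners, DHR2, a DEAH-box RNA helicase, had the smallest p (-0.93 ± 0.16 (SE, adjusted p = 0.000464)), although the call was lost after quantile normalization. Its probe read -0.45, -1.89, -1.53, -0.45, -0.60 and -0.30 in SS330 and -1.09, no value, -2.33, -2.44, -1.53 and -2.17 in prp17 null. DHR2 values were -0.77, -2.25, -1.77, -1.37, -0.60 and -1.23 in prp17-1 and -0.10, -2.09, -2.19, -0.99, -0.78 and -1.16 in prp22-1. DHR2 values of prp17 null were the lowest of the 4 strains at each of the 5 times at which it had a value, time 0 included. EMG1, a methyltransferase that modifies the small subunit rRNA, fell by 1.05 on the log2 scale (-1.05 ± 0.21 (SE, adjusted p = 0.00121)). Its probe read -0.09, -1.97, -1.17, -0.20, -0.33 and 0.13 in SS330 and 0.03, -2.76, -1.31, -1.64, -1.28 and -1.98 in prp17 null. EMG1 values were -0.22, -2.10, -1.95, -0.69, -0.34 and -0.57 in prp17-1 and -0.12, -1.56, -1.25, -0.76, -0.33 and -0.98 in prp22-1. SS330 was back near its start from 30 min on, while prp17 null stayed at -1.28 or lower. The DEAD-box helicase ROK1 (-0.88), the GTPase BMS1 (-0.71) and the helicase ECM16, which removes U3 from the pre-rRNA (-0.70), were called lower. RCL1, the partner of BMS1, was at -0.29 ± 0.11 (SE) and did not pass.

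Among the remaining factors, NOP14, which acts with NOC4 and EMG1, had the smallest p (-0.97 ± 0.15 (SE, adjusted p = 0.000151)). Its probe read -0.20, -2.07, -1.41, -0.27, -0.42 and -0.35 in SS330 and 0.09, -1.84, -1.61, -1.45, -0.79 and -0.35 in prp17 null. NOP14 values were -0.05, -1.61, -1.86, -0.66, -0.14 and -0.47 in prp17-1 and -0.02, -1.74, -1.61, -0.48, -0.52 and -0.70 in prp22-1. At 5 and 15 min the strains overlapped, and at 30 min the prp17 null value was the lowest of the 4. NSR1, the yeast nucleolin, was at -1.0 ± 0.18 (SE, adjusted p = 0.000633), a call that was lost after quantile normalization and with no strain block. Its probe read -0.62, -1.90, -1.51, -0.84, -0.98 and -0.47 in SS330 and -1.28, -3.47, -2.71, -2.57, -2.08 and -3.46 in prp17 null. NSR1 values were -0.93, -2.39, -2.38, -1.96, -1.26 and -1.65 in prp17-1 and -0.39, -2.25, -1.36, -1.05, -0.81 and -1.09 in prp22-1. At every time NSR1 was lowest in prp17 null, and all its 37C values there lay below all those of SS330. UTP23 (-1.06), RRP5, which is needed for both subunits (-0.98), ENP1 (-0.79), UTP11 (-0.78) and the KH-domain protein KRR1 (-0.77) also fell. So did UTP14 (-0.70), which activates the helicase of ECM16, SOF1 (-0.57), BUD21 (-0.43) and UTP20 (-0.41). The call of SOF1 was lost under 26 of 36 alternatives. UTP30 (-0.43), NOC4 (-0.30) and UTP7 (-0.27) did not pass.

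At 37C the processome and snoRNP genes were lower in prp17 null than in SS330. The limma fit with the 37C time as a block called 23 of the 42 member probes lower (22 of 41 genes) and none higher, where 19.4% of all tested probes were called lower and 14.6% higher. The estimate was below 0 for 38 of 42, with a median of -0.56 against -0.04 over all tested probes. It compares levels at 37C and does not take off a difference already present at 23C. The calls were 2 of 6 in UtpA, 6 of 7 in UtpB, 2 of 4 in the snoRNP proteins, 2 of 3 in the Mpp10 complex, 0 of 2 in UtpC, 4 of 6 in the enzymes and 7 of 14 in the remaining factors. The lower calls were 10 with no time block, where 14.1% of all probes were called lower, and 11 when only the arrays of these 2 strains were fitted, where 7.51% were. After quantile normalization 13 were lower and 2 higher, RRP7 and BMS1, where 12.4% of all probes were lower and 9.73% higher, and the median was -0.27. Without the 3 arrays with fewest values (15 min of prp22-1, 5 and 30 min of prp17 null) 16 were lower and 2 higher. Of all probes 16.3% were then lower and 12.7% higher.

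The difference was not even over the course. The median of prp17 null minus SS330 over members was -0.01, -0.25, -0.21, -1.24, -0.51 and -0.54 at the 6 times. At time 0 20 of 40 probes were below SS330, and at 30 min 38 of 38 were. The 30 min values of prp17 null are from 1 array, which had a value for 79.7% of probes, the fewest in this strain. Its SD over probes was 1.01. At 60 and 120 min 37 of 40 and 33 of 40 were below it. After quantile normalization the medians were 0.12, -0.09, -0.12, -0.75, -0.07 and -0.18, with 35 of 38 probes below SS330 at 30 min but 22 of 40 at 60 min and 27 of 40 at 120 min. Without the 30 min array of prp17 null the median estimate over the times at 37C was -0.39. Heat shock genes moved the other way, with 13 of 15 called higher, and the median difference in their log2 values was -0.02, 0.30, 0.61, 2.27, 2.98 and 2.36 at the 6 times. Their part in the members' difference was not tested, nor was that of the missing values and wider spread of the prp17 null arrays.

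The smallest p-values were those of NSR1 at -1.72 ± 0.21 (SE, adjusted p = 6.21e-05), DHR2 at -1.37 ± 0.19 (SE, adjusted p = 0.000176) and RCL1 at -1.01 ± 0.13 (SE, adjusted p = 9.97e-05). RCL1 encodes a cyclase-like protein that enters the processome bound to BMS1. Its probe read -0.46, -0.94, -0.61, -0.17, -0.17 and -0.08 in SS330 and -0.69, -1.82, no value, -1.25, -0.91 and -1.33 in prp17 null. RCL1 values were -0.50, -1.22, -1.12, -0.69, -0.36 and -0.49 in prp17-1 and -0.20, -1.13, -0.87, -0.33, -0.21 and 0.18 in prp22-1. RCL1 values of prp17 null were the lowest of the 4 strains at each of the 5 times with a value, and its difference from SS330 by time was -0.23, -0.88, no value, -1.08, -0.74 and -1.25. NSR1 and DHR2 were already low at 23C, at -0.66 and -0.65 relative to SS330, whereas RCL1 was at -0.23.

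In UtpA, UTP5 had the smallest p at -0.83 ± 0.16 (SE, adjusted p = 0.00147). Its probe read -0.27, -0.84, -0.59, 0.11, -0.02 and -0.12 in SS330 and -0.43, no value, -1.20, -1.34, -0.67 and -0.69 in prp17 null. UTP5 values were -0.40, -1.05, -0.95, -0.20, -0.07 and -0.26 in prp17-1 and 0.04, -1.20, -0.38, -0.23, -0.19 and -0.59 in prp22-1. Every 37C value of prp17 null was below that of SS330 at the same time, although the ranges of the strains overlapped. UTP15 (-0.55) was the other call of the module. UTP15 was already at -0.52 relative to SS330 at 23C. Its mean change from time 0 was -0.24 in prp17 null and -0.21 in SS330. UTP9 (-0.55), UTP10 (-0.50) and UTP8 (-0.48) did not pass. In UtpB, UTP21 had the smallest p at -0.87 ± 0.17 (SE, adjusted p = 0.00195). Its probe read -0.33, -1.36, no value, -0.31, -0.36 and 0.08 in SS330 and -0.54, -2.23, -1.27, -1.80, -0.98 and -0.64 in prp17 null. UTP21 values were -0.24, -1.54, -1.06, -0.94, -0.44 and -0.87 in prp17-1 and -0.15, -1.58, -1.09, -0.49, -0.34 and -0.45 in prp22-1. It was lowest in prp17 null at each time at 37C but 120 min, when only the SS330 value was above 0. UTP6 (-0.97), UTP18 (-0.71), PWP2 (-0.60 and -0.56 by probe) and UTP13 (-0.59) were called, and DIP2 (-0.29) was not.

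Among the snoRNP proteins NOP56 at -0.99 ± 0.23 (SE, adjusted p = 0.00526) and SNU13 at -0.98 ± 0.27 (SE, adjusted p = 0.0113) were lower. Both calls were lost after quantile normalization and on the 5, 15 and 30 min arrays alone. That of SNU13 was also lost when only the arrays of these strains were fitted. The SNU13 difference grew from -0.95 at 30 min to -2.47 at 120 min. NOP58 at -0.42 ± 0.17 (SE) and RRP9 at -0.35 ± 0.15 (SE) did not pass. In the Mpp10 complex IMP3 (-0.73) and IMP4 (-0.78) were lower and MPP10 (-0.42) did not pass. EMG1 (-1.08), SOF1 (-1.17), UTP23 (-1.12), ROK1 (-0.74), BUD21 (-0.66), UTP30 (-0.65), NOC4 (-0.49) and UTP20 (-0.46) were also called.

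Not every member was lower. The estimates of BMS1 (0.50 ± 0.24 (SE)), ECM16 (0.30 ± 0.28 (SE)), RRP7 (0.27 ± 0.16 (SE)) and RRP5 (0.07 ± 0.22 (SE)) were above 0 and none passed, and NAN1 (-0.03) and UTP7 (-0.09) lay near 0. ECM16 was 1.48 above SS330 at 23C and read 1.48, 1.24, 0.39, -1.11, 0.13 and 0.83 relative to it over the 6 times. BMS1 was above SS330 at 4 of 5 times at 37C and below it at 30 min. RRP5 was above SS330 up to 15 min and below it from 30 min on. At 30 min each of these genes was below its SS330 value.

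**Figure D3:**
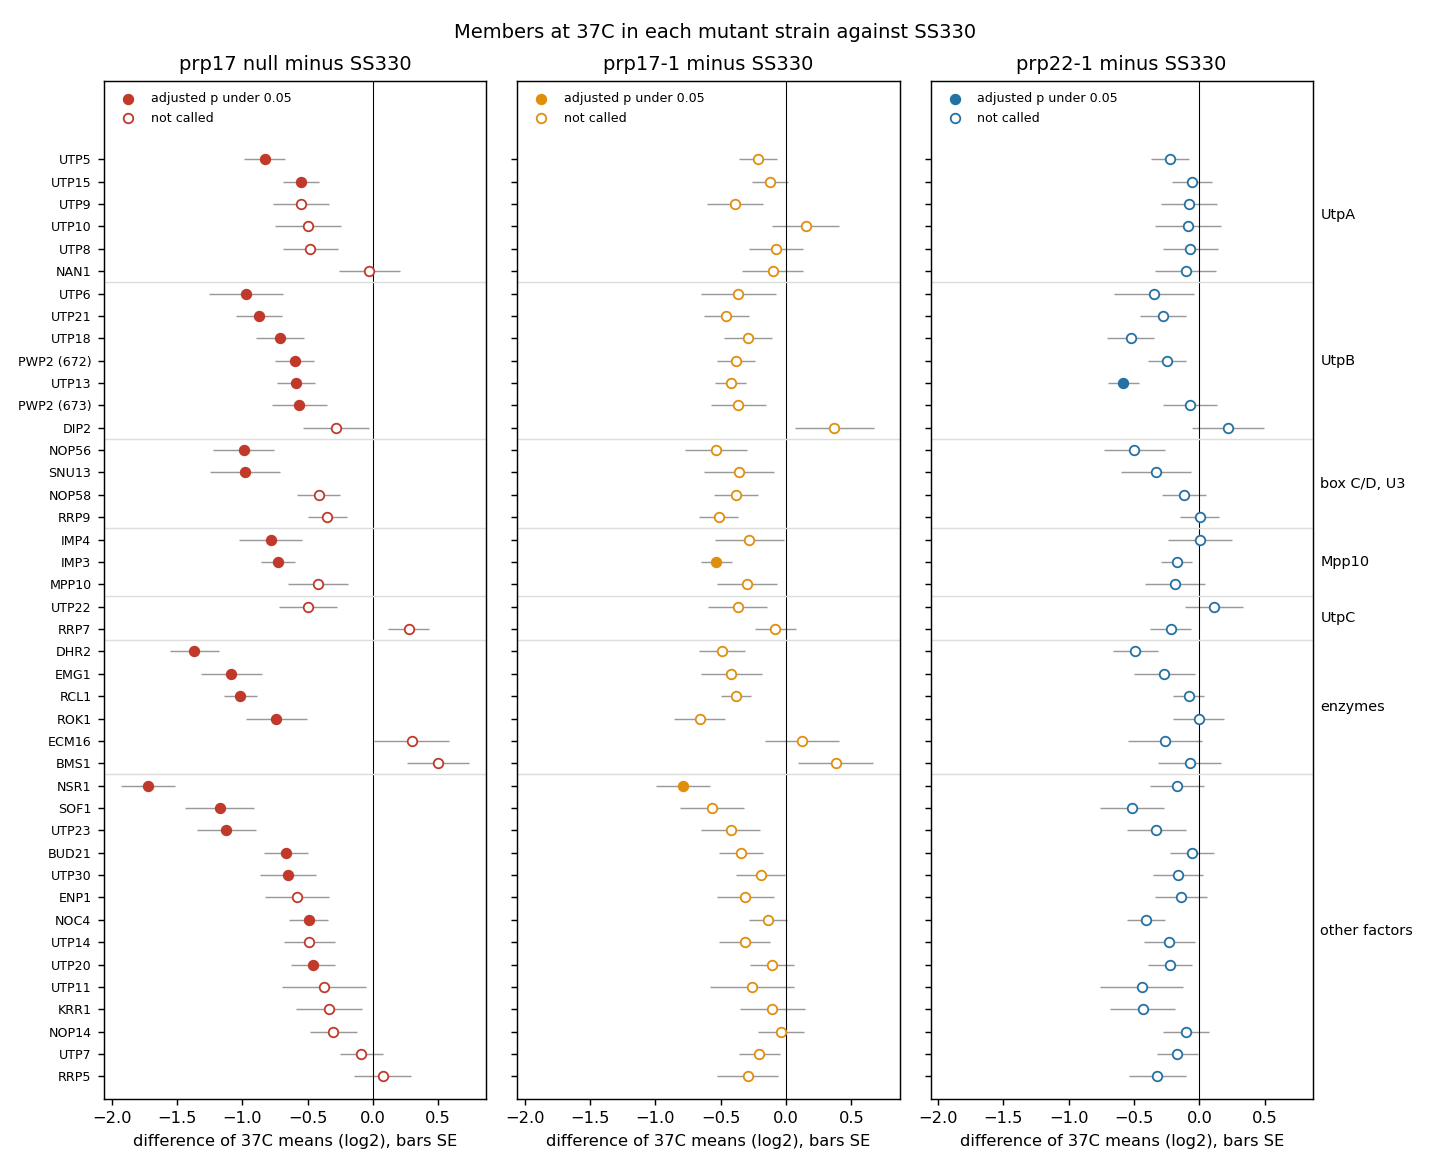
Difference of each member probe from SS330 at 37C in the 3 mutant strains (log2, limma estimate with its SE), grouped by module and ordered by the prp17 null estimate, with filled points where the adjusted p was under 0.05. In prp17 null 23 of 42 points are filled, all left of 0, against 2 in prp17-1 and 1 in prp22-1.

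In prp17-1 the members were lower than in SS330 by a median estimate of -0.31 at 37C, with 38 of 42 estimates below 0. Of the 42, 2 were called lower and none higher, where 2.22% of all tested probes were called lower and 0.948% higher. They were IMP3 at -0.54 ± 0.12 (SE, adjusted p = 0.0242) and NSR1 at -0.79 ± 0.21 (SE, adjusted p = 0.0478), both of which were also called in prp17 null. RRP9 (-0.52 ± 0.15 (SE), adjusted p = 0.0684) and UTP13 (-0.42 ± 0.12 (SE), adjusted p = 0.0679) came next. The median difference over members by time was -0.08, -0.05, -0.51, -0.57, 0.01 and -0.38, with 40 of 41 probes below SS330 at 30 min and 20 of 42 at 60 min. The call of IMP3 was lost on leaving out any 1 of 7 arrays and that of NSR1 on leaving out any 1 of 15, and both were lost with no time block. After quantile normalization 5 members were lower, IMP3 among them, where 5.7% of all probes were, and the median was -0.20. Without the 15 min array of prp17-1 the median was -0.21.

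In prp22-1 the members' median estimate was -0.18, with 38 of 42 below 0, and 1 of 42 was called lower where 1.68% of all tested probes were called lower and 1.80% higher. The call was UTP13, a WD-repeat protein of UtpB, at -0.58 ± 0.12 (SE, adjusted p = 0.0129). UTP13 read 0.36, -0.90, -0.06, 0.01, 0.12 and 0.12 in SS330 and -0.07, -1.36, -0.90, -0.63, -0.48 and -0.26 in prp22-1. It was lower in prp22-1 at each time, and already at 23C by -0.43. The prp17 null values were 0.01, no value, -1.02, no value, -0.50 and -0.10, and those of prp17-1 -0.37, -1.23, -1.0, -0.49, -0.07 and -0.05. UTP13 was lower than SS330 at time 0 in all 3 mutant strains, and the call in prp22-1 was lost with no time block. By time the members' median difference was 0.24, 0.01, 0.10, -0.21, -0.13 and -0.53, with 40 of 41 probes below SS330 at 120 min. The median estimate was -0.11 after quantile normalization and -0.12 without the 30 min array of SS330.

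The other mutant strains were also set against prp17 null. In prp22-1 minus prp17 null 12 of 42 members were higher and 1 lower, where 15% of all tested probes were called higher and 11.9% lower, with a median estimate of 0.45. That median was 0.26 without the 30 min array of prp17 null and 0.15 on the 60 and 120 min arrays alone. After quantile normalization it was 0.16, with 3 members higher and 3 lower where 8.27% of all probes were higher and 7.07% lower. NSR1 (1.55), RCL1 (0.93), DHR2 (0.88) and EMG1 (0.82) were the 4 largest estimates. The gene called against the direction of the others was RRP7, at -0.49 ± 0.16 (SE, adjusted p = 0.0295), whose values are given above and were highest in prp17 null at each time but 30 min. The call of RRP7 was lost on leaving out any 1 of 6 arrays. In prp17-1 minus prp17 null 4 members were higher, NSR1 (0.93), DHR2 (0.88), RCL1 (0.63) and UTP5 (0.61), where 6.11% of all tested probes were called higher and 6.82% lower. None of these 4 passed after quantile normalization, when 1.24% of all probes were called higher and 1.44% lower. Without the 15 min array of prp17 null the count was 8. The share of all probes called in that fit was not set beside it, so whether the rise was particular to the members is not known. These comparisons share the prp17 null arrays with the comparison against SS330 and do not add to it.

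Whether a mutant departed further from SS330 late in the course was tested as the mean of 60 and 120 min minus that of 5, 15 and 30 min, mutant minus SS330. No member passed in any strain by limma, and 3, 0 and 1 of 42 had an unadjusted p under 0.05 for prp17 null, prp17-1 and prp22-1. Of all probes tested in this comparison 4.47% were called for prp17 null, 0% for prp17-1 and 0.0182% for prp22-1. The 3 in prp17 null were SNU13 at -1.45 ± 0.41 (SE, adjusted p = 0.0569), UTP6 at 1.38 ± 0.44 (SE, adjusted p = 0.0911) and RRP5 at -0.84 ± 0.35 (SE, adjusted p = 0.182), and so were not in 1 direction. The median over members was 0.19, 0.13 and -0.18 for these strains in the same order. On leaving out 1 array the first ran from -0.20 (the 30 min array of prp17 null, when 2 members were called lower) to 0.40 (the 5 min array of SS330). The second then ran from -0.05 (the 60 min array of SS330) to 0.30 (the 120 min array of prp17-1). The third ran from -0.43 (the 60 min array of SS330) to -0.07 (the 120 min array of SS330). With the 30 min arrays of all strains left out, the median for prp17 null was -0.29. It was -0.22 without the 3 arrays with fewest values. Leaving out single arrays at 30 or 60 min of SS330, or at 15 or 60 min of prp17 null, gave 1 call each. No share of all probes was set beside the calls without 1 array.

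Ribosomal protein genes, which encode the proteins of the ribosome itself, took another course on the same arrays. In this late minus early comparison 67 of 124 tested were called lower in prp17 null, with a median of -2.02, and the medians were -1.02 in prp17-1 and -1.16 in prp22-1 with no call. By time their median difference from SS330 was -0.49, 0.49, 0.57, -1.03, -1.64 and -2.46 in prp17 null. The processome and snoRNP genes were closest to SS330 early and furthest at 30 min, while the ribosomal protein genes were above SS330 at 5 and 15 min and furthest below it at 120 min. Large subunit assembly genes, by contrast, read 0.17, -0.37, -0.18, -1.24, -0.48 and -0.50, near the members at each time. After quantile normalization the ribosomal protein genes read -0.68, 0.63, 0.51, -0.13, -0.79 and -0.98 in prp17 null, and large subunit assembly genes 0.45, -0.12, -0.11, -0.54, 0.04 and 0.00. The difference between the lists was not tested.

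**Figure D4:**
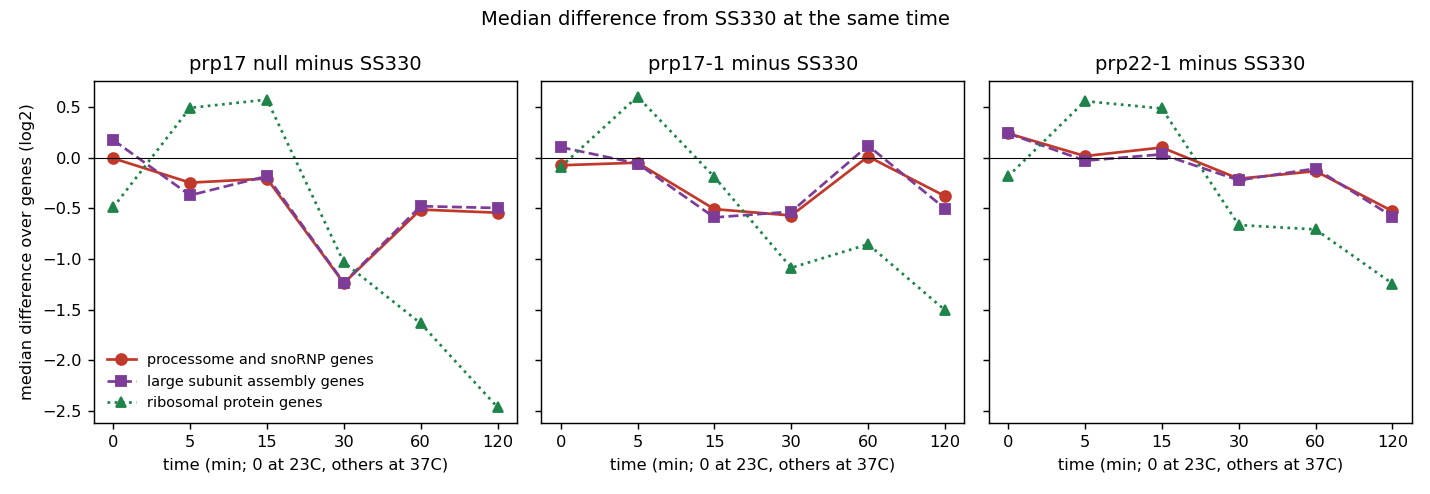
Median over genes of the difference from SS330 at the same time (log2) for the processome and snoRNP genes, large subunit assembly genes and ribosomal protein genes in the 3 mutant strains, at the 6 evenly spaced times. In prp17 null the members' median was -1.24 at 30 min and -0.54 at 120 min, and that of the ribosomal protein genes was -1.03 and -2.46.

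Other genes of small subunit assembly, a list of 40 with 39 tested, were lower in the shift for 23 and higher for none, with a median of -0.52. Among them TSR1, a GTPase-like factor of late pre-40S particles, was at -1.0 ± 0.14 (SE, adjusted p = 7.63e-05), the acetyltransferase KRE33 at -1.14 ± 0.27 (SE, adjusted p = 0.00367), the dimethyltransferase DIM1 at -1.15 ± 0.20 (SE, adjusted p = 0.00065) and RRP12 at -0.95 ± 0.17 (SE, adjusted p = 0.000458). In prp17 null minus SS330, 13 of the 39 were lower and none higher, with a median of -0.34, DIM1 being at -1.06 ± 0.23 (SE) and TSR1 at -0.79 ± 0.16 (SE). The proteins of the box H/ACA snoRNPs, which guide pseudouridylation, were tested for 4 of 6 genes. CBF5, the pseudouridine synthase, fell in the shift (-1.12 ± 0.13 (SE, adjusted p = 3.04e-05)) and so did NHP2 (-1.01 ± 0.22 (SE, adjusted p = 0.00199)), and CBF5 was lower in prp17 null (-0.53 ± 0.16 (SE, adjusted p = 0.0201)). RNA polymerase I genes were lower for 8 of 15 in the shift and 6 of 15 in prp17 null. Large subunit assembly genes were lower for 37 of 49 and higher for 1 in the shift, and lower for 26 of 49 and higher for 1 in prp17 null.

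The members followed one another closely over the arrays. The correlation of a member probe with the median of the other members over the arrays on which it had a value was 0.869 at the median and above 0.8 for 26 of 42 probes. It was highest for MPP10, probe 672 of PWP2 (both 0.966) and UTP23 (0.960), and lowest for DIP2 (0.507) and RRP7 (0.380). The points share arrays and the same 6 times, so this describes their likeness and is no test. In the RefSeq annotation the stretch from start to stop codon is a multiple of 3 bases long in all 43 genes. An intron whose length is a multiple of 3 would go unseen, and no gene known to hold an intron was set beside them. Whether any member holds an intron was therefore not tested.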

How the data were processed

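The authors deposited 1 column of log2 ratios per array. Their log base is not stated and was taken as 2. The direction, RNA over genomic DNA, was read from the values of CDC40 and of heat shock genes. How background, dyes and poor spots were treated is not given in the sources used here. Since the values hold no signal over background, the number of arrays, 24, limits the precision.

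Each array was centred on its median. A probe was tested with a value on at least 20 of 24 arrays and on at least 3 of 5 arrays at 37C in each strain, which left out 863 of 6350 probes. Names came from the platform's annotation, which named 5527 probes and left 823 unnamed.

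Fits were made by least squares on the values present, with moderated tests of limma 3.58.1 in R 4.3.3. The Benjamini-Hochberg adjustment ran over all probes tested in a comparison, and a call is an adjusted p under 0.05. For the shift, time was a factor and strain a block, and the estimate is the mean over the 5 times. Strains were compared at 37C with the time as a block, since the labels give each strain the same times, and a missing array was left out of that probe's fit. Late minus early was an interaction of strain and time class. The times are conditions and not a shared batch, and the fits with no block are given under the alternatives. The fits were tested on simulated data.

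The members, a list of names, and the other lists were chosen with earlier results of these data known. Values on every array are given for the snoRNP proteins, NSR1, EMG1, the member of each module with the smallest p in the shift and in prp17 null minus SS330, and any member called against the others' direction. UTP13 was added after its values were seen. Alternatives changed the centring, filter, threshold, variance settings, block, arrays and times. The planned promoter search was not run, and sequences are not analysed here. Figures were drawn with matplotlib 3.10.9 (Python 3.11.15, pandas 2.3.3, numpy 2.4.6).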

Additional observations from a re-analysis of the deposited data

Results flagged for a closer look

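Among 104 series of 37C values of a strain, for the named members and the medians of the modules, 4 had 1 array far from the others by Dixon's criterion, where chance alone marks about 5% of series. All 4 were low at 5 min. The 104 include series with too few values to be checked, namely NOP1 in prp17 null, with none, and probe 670 of PWP2 in SS330, with 2. UTP9 read -1.20 in SS330 at 5 min, with the others between -0.18 and -0.01. NOP56 read -2.31 in SS330, with the others between -0.72 and -0.46, and -2.58 in prp22-1, with the others between -1.54 and -1.14. PWP2 probe 673 read -1.22 in prp22-1, with the others between -0.56 and -0.30.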

How the results depend on the processing

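No member's called value changed sign under any alternative run. Of the 29 shift calls 12 held under each alternative run for them (EMG1, ENP1, IMP3, MPP10, NOP14, NOP56, NOP58, ROK1, RRP5, SNU13, UTP13 and UTP23), and of the 23 in prp17 null minus SS330 4 did (DHR2, NSR1, RCL1 and UTP23). Of these, ENP1, IMP3, NOP56, ROK1, RRP5, UTP13, DHR2 and RCL1 lacked a value on some array and so were not in the fit of probes with a value on all 24. After quantile normalization the members called were 16 in the shift, 15 in prp17 null, 5 in prp17-1, 0 in prp17-1 minus prp17 null, 6 in prp22-1 minus prp17 null and 1 in late minus early of prp17 null, of which 2 in prp17 null, 3 in prp22-1 minus prp17 null and the last were higher. All probes called were then 30.7%, 22.2%, 9.53%, 2.68%, 15.3% and 4.04% in the same order. Of probes with a value on all 24 arrays, 19 of them members, the counts were 15 in the shift, 8 in prp17 null, 1 in prp17-1, 0 in prp22-1, 1 in prp17-1 minus prp17 null, 5 in prp22-1 minus prp17 null and 1 in late minus early of prp17 null. The shares of all such probes called were 37.5%, 35.0%, 4.33%, 3.14%, 12.7%, 27.3% and 9.94% in the same order. With a value on at least 12 arrays or with trended and robust variances prp17-1 had 1, where 2.76% and 3.28% of all probes were called. At an adjusted p under 0.01 the counts were 19 in the shift, 15 in prp17 null, 0 in prp17-1, 0 in prp22-1 and 4 in prp22-1 minus prp17 null. Of all probes 18.0%, 17.6%, 0.911%, 1.53% and 12.5% were then called. With no replicate block, that is without strain or time as a block, the shift gave 23, prp17 null 10, prp17-1 0, prp22-1 0, prp17-1 minus prp17 null 0 and prp22-1 minus prp17 null 4, of which 1 was lower, where 19.3%, 25.9%, 1.4%, 2.48%, 8.02% and 19.6% of all probes were called. Fitted on the arrays of 2 strains only, prp17 null gave 11 and prp22-1 minus prp17 null 4, where 14.0% and 8.91% of all probes were called. On the 5, 15 and 30 min arrays alone the counts were 11 in prp17 null, 0 in prp17-1, 0 in prp22-1, 0 in prp17-1 minus prp17 null and 8 in prp22-1 minus prp17 null. Of all probes 11.7%, 0.984%, 1.08%, 1.22% and 14.4% were called there. On the 60 and 120 min arrays the counts were 15 in prp17 null and 0 in prp17-1, where 33.9% and 3.77% of all probes were called. Without the 3 arrays with fewest values prp22-1 minus prp17 null gave 8, 3 of them lower, where 19.5% of all probes were called. Late minus early of prp17 null then had a median of -0.22 over members. Without the 30 min arrays it gave 2 calls, where 11.6% of all probes were called. Leaving out 1 array at a time gave 17 to 32 in the shift, 17 to 27 in prp17 null, 0 to 3 in prp17-1, 1 in prp22-1, 3 to 8 in prp17-1 minus prp17 null, 10 to 16 in prp22-1 minus prp17 null, 0 to 2 in late minus early of prp17 null and 0 in the other late minus early comparisons. The shares of all probes called were not set beside these ranges, so whether such changes were particular to the members is not known. With values as deposited, without centring, the median estimate of all probes lay between -0.03 and 0.10 over the comparisons, against -0.04 to 0.04 with centring. Fewer genes were tested under the filter on all 24 arrays, and fewer arrays entered the fits of 2 strains or of some times. The cause of the other changes was not tested.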

Other observations

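Some members differed from SS330 at 23C, where each strain has 1 array and no test is possible. In prp17 null ECM16 was 1.48 and RRP5 0.81 above SS330, while SNU13 was at -0.81, SOF1 at -0.82, NSR1 at -0.66, DHR2 at -0.65 and UTP15 at -0.52. In prp17-1 ECM16 was 0.74 above it and UTP13 at -0.73. At 5 min 6 of 35 member probes with a value differed from SS330 by more than 1 in prp17 null, with UTP6 at -1.92, NSR1 at -1.57, SOF1 at -1.23, IMP4 at -1.16, ECM16 at 1.24 and BMS1 at 1.32. In prp17-1 2 of 39 did, UTP10 at 1.42 and DIP2 at 1.16, and in prp22-1 0 of 41. At later times in prp17 null, those more than 1 below SS330 were 2 of 37 at 15 min and 29 of 38 at 30 min. They were 2 of 41 at 60 min and 9 of 40 at 120 min, with 1 more than 1 above at 120 min. No share of all probes was set beside these counts. The SD over probes at 5 min was 0.904 in prp17 null and 0.761 in SS330.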
